A study of Mus musculus with 75 samples.

Results

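Lung RNA of BLEO-IPF mice on day 28 after bleomycin (BLEO) was compared with that of control mice (CTRL). The comparison took the 12 libraries labelled as bleomycin day 28 and the 10 labelled as saline, 22 of the 75 libraries of a longitudinal series, each from 1 mouse and matched by its library name. Bleomycin is an antineoplastic drug that breaks DNA and injures the lung lining, and a single instillation is the standard mouse model of idiopathic pulmonary fibrosis (IPF). The series followed such mice from the first week to day 42, and the question for day 28 was which genes differed from CTRL in established fibrosis. All 22 mice were male C57BL/6JRj mice, and the day 28 mice were 12 to 14 weeks old when they received 1 intratracheal dose of BLEO sulphate. The labels of the CTRL mice carry the same protocol and with it the same 12 to 14 weeks, and no separate age is given for them. Only treated mice that had lost between 5 and 17% of body weight on day 6 entered the groups, so that the day 28 mice are a selected part of the treated animals. The sample names give the controls as saline, and legends of the study, including that of its RNA comparison, give intratracheal saline. The treatment protocol and the methods of the study give the controls as untreated instead. The tissue was the inferior lobe of the right lung, excised after the airways had been lavaged, so cells washed out of the airspaces were not sequenced.

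Fibrosis is the replacement of air-exchanging tissue by extracellular matrix, which is made mainly by fibroblasts, the connective tissue cells of the lung. Transforming growth factor beta (TGF-beta) drives fibroblasts to secrete collagens, fibronectin and elastin, while macrophages clear debris and release factors that act on fibroblasts. The alveolar surface is rebuilt from AT2 cells, the surfactant-producing epithelial cells, which pass through a keratin 8 positive transitional state before they become flat AT1 cells.

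Total counts lay between 9662299 and 14665247 reads in CTRL mice and between 9249037 and 13704519 on day 28. Expression is given in CPM, a count scaled to a common library size, and at these depths 3 counts, the floor used here, corresponded to 0.205 to 0.324 CPM. All libraries carried the defining RNAs of lung, with at least 6053 CPM of *Sftpc*, 3238 CPM of *Scgb1a1* and 1119.95 CPM of *Ager*, the markers of AT2, club and AT1 cells. Day 28 replicate 10 stood apart. Its skeletal muscle markers summed to 4813 CPM, against 62.4 to 138 CPM in CTRL mice and 46.8 to 318 CPM in the other day 28 mice. Cardiac muscle markers summed to 3235 CPM in that library and the genes of the brown fat list to 1700 CPM, whereas the other 11 day 28 mice reached 1117 and 59.1 CPM and the CTRL mice 409 and 58.2 CPM. The brown fat list also holds genes made by fat cells of other types, such as *Cfd* and *Adipoq*. These held 1150 and 196 CPM in replicate 10, so the sum does not tell the type of fat. It also held the highest level of the B cell marker *Ms4a1* on day 28, 105 CPM, and the highest share of mitochondrially encoded counts, 2.87% against at most 2.09% in CTRL mice. Of the other mice, day 28 replicates 4, 7, 8 and 11 lay above all CTRL mice in the summed cardiac markers. The same mice lay above all CTRL mice in the summed skeletal muscle markers, at 205, 147, 264 and 318 CPM. Each result below was therefore computed with and without replicate 10, and the value without it is given where the call of a named gene changed. A list count given here with no second value moved by 2 genes or fewer.

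**Figure D1:**
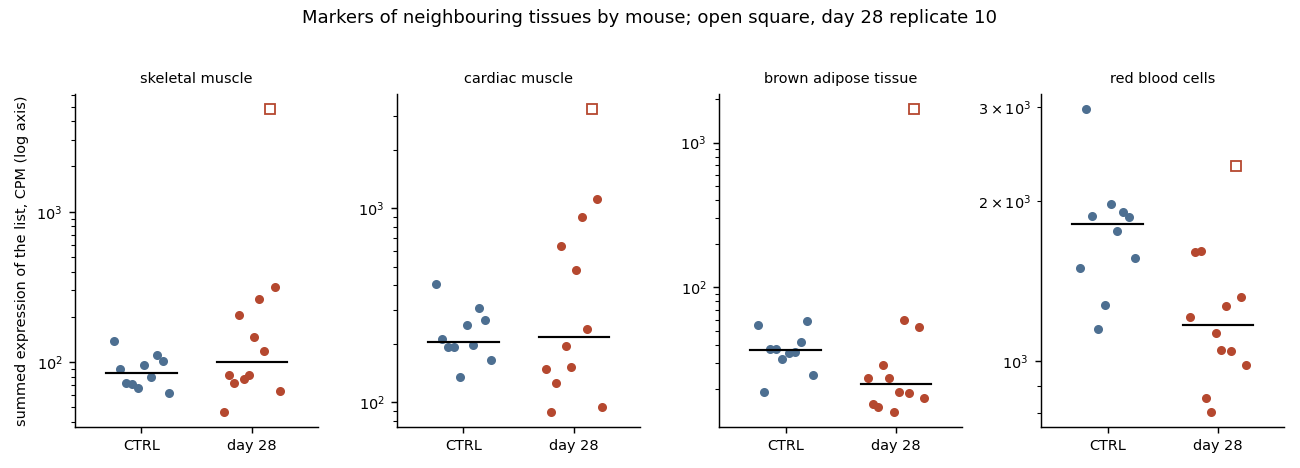
Summed expression of the marker lists of skeletal muscle, cardiac muscle, brown adipose tissue and red blood cells in CPM (log axis), 1 point per mouse, with the group median as a bar and day 28 replicate 10 as an open square. Replicate 10 lies at 4813 CPM for skeletal muscle and 1700 CPM for the brown adipose tissue list, which also holds genes of other fat, above every other mouse. Red blood cell markers of the other day 28 mice reach 1611 CPM.

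Of 16221 genes tested, 7023 differed between day 28 and CTRL at an adjusted p under 0.05 (edgeR's quasi-likelihood test with Benjamini-Hochberg adjustment). These DEGs comprised 3906 genes that were higher on day 28, 24.1% of the genes tested, and 3117 that were lower, 19.2%. The counts of every gene list below are to be read beside these shares, which some lists do not exceed. Values are given as log2 fold change (log2FC, day 28 over CTRL) with the standard error of the fit and that test's adjusted p, and the median log2FC over all genes tested was 0.02. Most changes were small. Among the DEGs, 2089 of the higher and 2130 of the lower genes changed by less than 1.5-fold, and 1082 rose but only 230 fell by 2-fold or more. A total of 137 genes rose by 8-fold or more, and none fell by as much. Leaving out replicate 10 gave 3841 higher genes (23.7%) and 3195 lower genes (19.7%), with 6678 DEGs shared between both fits, 95.1% of the 7023. In bulk tissue, fewer cells of a type and less RNA per cell cannot be told apart, and this holds for every cell marker below. Whether the counting used strand is not given in the sources used here, so *Adamts4*, *Ackr1*, *Col4a1*, *Col10a1*, *Cxcl10*, *Foxp3*, *Fosl1*, *Atp2a1*, *Lrtm2*, *Pcdhac2* and *Ccdc33*, each of which overlaps another expressed gene, may share reads with it.

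The day 28 mice also differed more from each other than the CTRL mice did. The median SD between mice was 0.17 on the log2 CPM scale in CTRL and 0.26 on day 28, and 0.25 without replicate 10. For 81.3% of the genes the SD was larger on day 28, and for 80.3% without that mouse. Groups that did not overlap at all, with every day 28 mouse above or below every CTRL mouse, were found for 341 higher genes (2.1% of the genes tested) and 217 lower genes (1.34%).

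**Figure D2:**
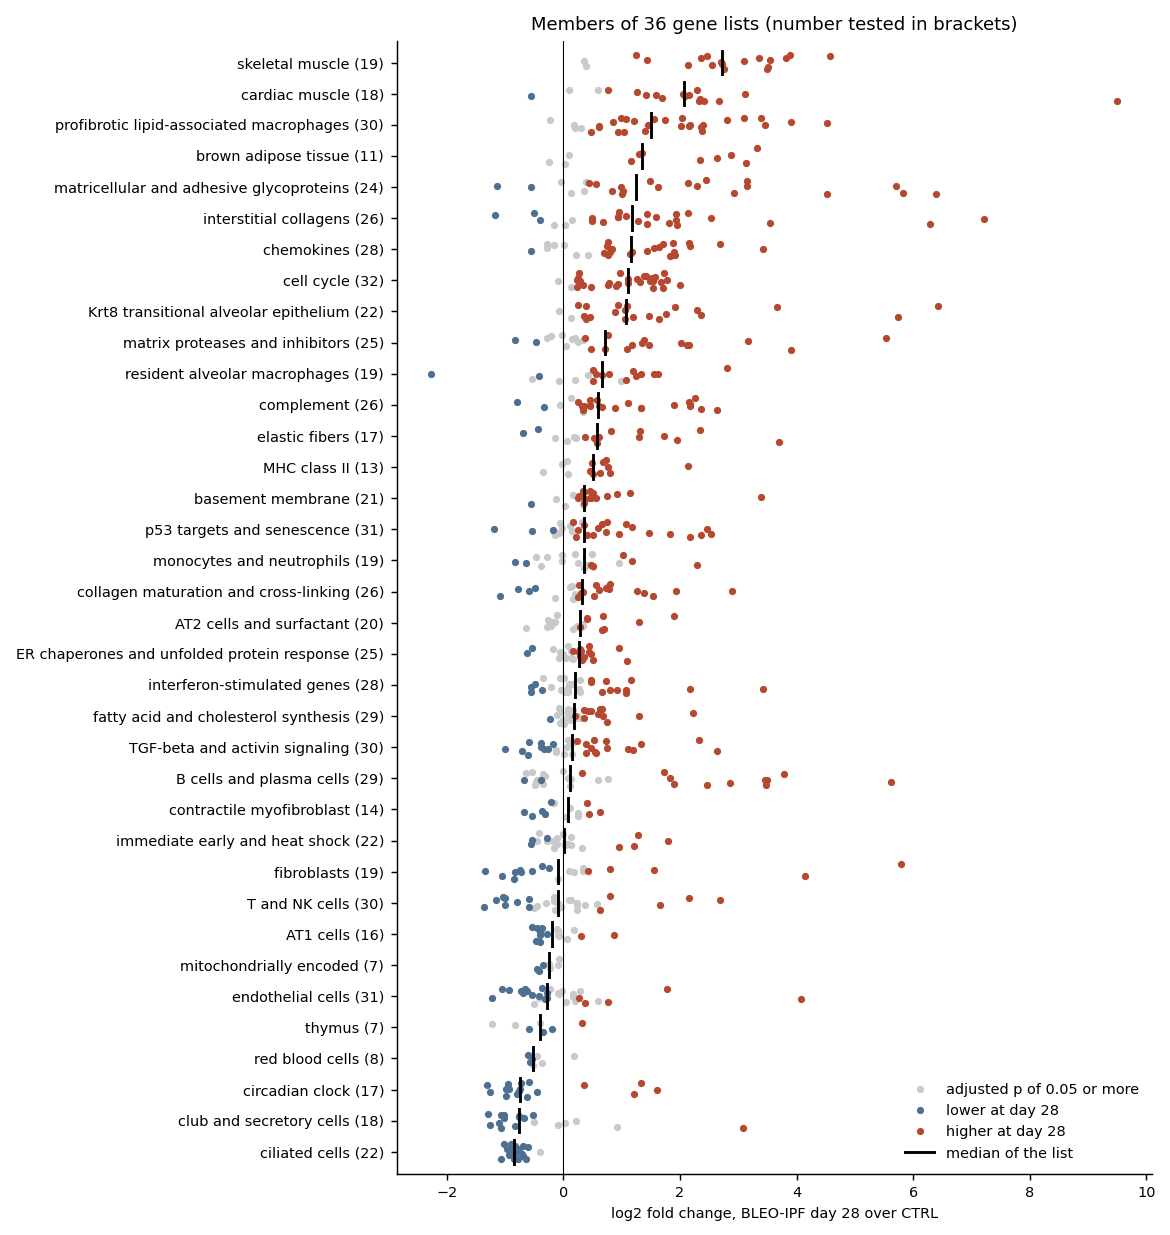
Log2 fold change on day 28 over CTRL of every tested member of 36 gene lists, 1 point per gene, in red where higher and in blue where lower at an adjusted p under 0.05 and in grey otherwise, with the list median as a bar. The profibrotic macrophage, matricellular and cell cycle lists lie to the right of 0, with medians of 1.5, 1.25 and 1.11, and ciliated, club and clock lists to the left, with medians of −0.84, −0.77 and −0.75. Without replicate 10 the medians of the skeletal muscle, cardiac muscle and brown fat lists were 0.67, 1.41 and −0.12.

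Among genes without overlap, *Thbs4*, *Chl1* and *Grem1* were among those with the largest increases. *Thbs4* (ENSMUSG00000021702, GRCm38 chromosome 13, 92751590 to 92794818, minus strand), which encodes the matrix glycoprotein thrombospondin 4, was measured at 0.0795 to 0.719 CPM (median 0.367) in CTRL mice and 3.08 to 94.9 CPM (median 19.7) on day 28. Every day 28 mouse exceeded the highest CTRL mouse at least 4.29-fold, although the day 28 mice themselves spanned a 30.8-fold range (log2FC 6.39 ± 0.69, adjusted p = 3.0e-11). *Chl1*, a neural cell adhesion molecule, lay at 0.0928 to 0.571 CPM (median 0.389) in CTRL and 1.12 to 101 CPM (median 10.1) on day 28 (log2FC 5.82 ± 0.84, adjusted p = 7.0e-08). *Grem1*, a secreted antagonist of bone morphogenetic proteins, went from 0.307 to 1.28 CPM (median 0.589) to 1.44 to 139.97 CPM (median 10.97) (log2FC 5.79 ± 0.87, adjusted p = 1.9e-07). No CTRL mouse held more than 1.28 CPM of either, so these fold changes rest on few control counts. *Cemip*, which takes part in hyaluronan breakdown, rose with log2FC 5.71 ± 0.76 (adjusted p = 9.4e-09) and *Dkk2*, an inhibitor of WNT signalling, with 3.86 ± 0.55 (adjusted p = 5.6e-08). Further increases without overlap concerned the aggrecanase *Adamts4* (4.23), *Megf11* (3.96), *Ankrd34b* (4.55), the anion exchanger *Slc26a4* (3.51), the fibrillar collagen gene *Col24a1* (3.54) and *Sprr1a*, a cornified envelope protein (3.67).

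**Figure D3:**
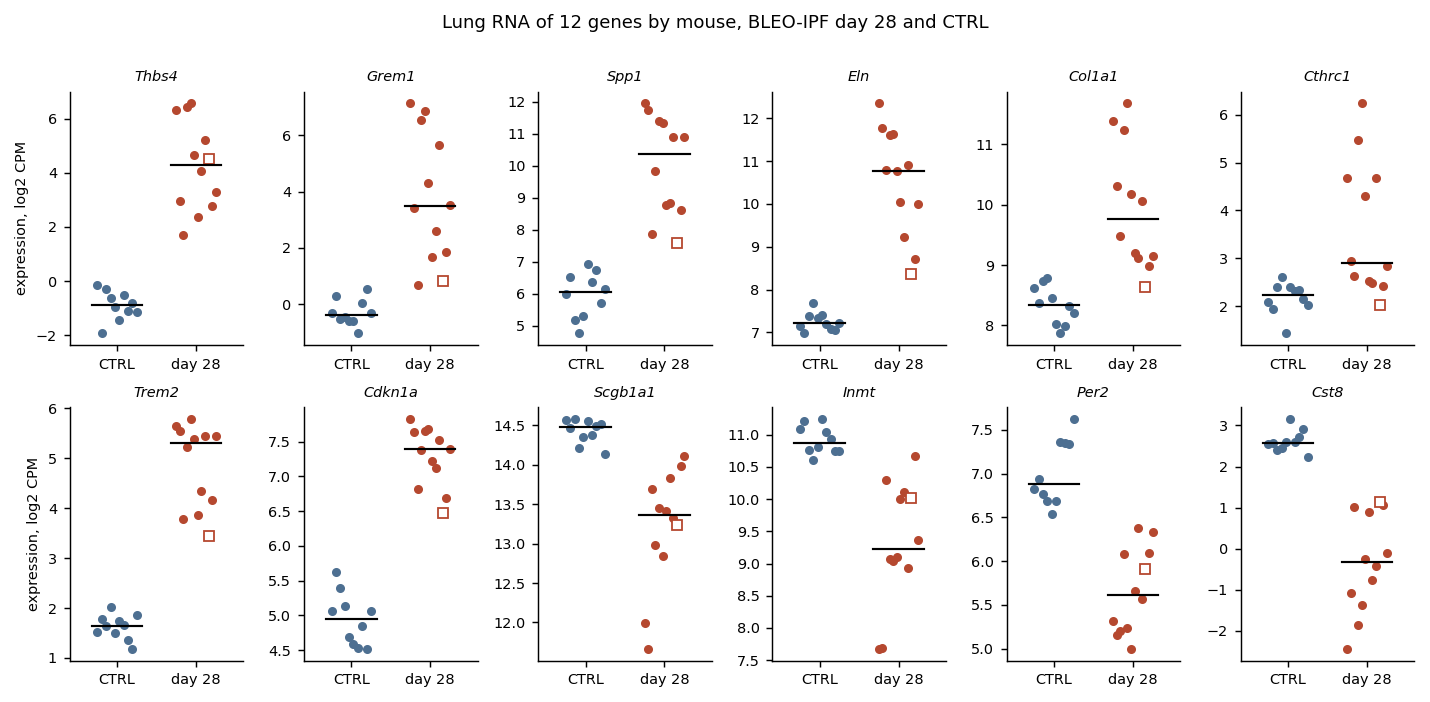
Expression of 12 genes in log2 CPM (each panel with its own scale), 1 point per mouse, with the group median as a bar and day 28 replicate 10 as an open square. *Thbs4*, *Grem1*, *Spp1*, *Eln*, *Trem2* and *Cdkn1a* show no overlap between the 12 day 28 and the 10 CTRL mice and lie higher on day 28, and *Scgb1a1*, *Per2* and *Cst8* lie lower without overlap; *Col1a1*, *Cthrc1* and *Inmt* overlap.

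Genes of the interstitial collagen list were mostly higher. The list holds the fiber-forming chains of scar tissue but also other collagens, such as the transmembrane *Col17a1*. Of 26 genes tested, 20 were higher and 3 lower, with a median log2FC of 1.17 against 0.02 over all genes. Without replicate 10 these were 18 and 3 of 25. *Col1a1* (GRCm38 chromosome 11, 94936224 to 94953042, plus strand), the main chain of type I collagen, ranged 233 to 443 CPM (median 325) in CTRL and 398 to 3274 CPM (median 888) on day 28. Of the 12 day 28 mice, 11 lay above all CTRL mice, with replicates 1, 4 and 5 at 2675, 2402 and 3274 CPM and the rest at 1263 CPM or less (log2FC 1.93 ± 0.32, adjusted p = 1.6e-06). *Col3a1*, the chain of type III collagen, went from 449.9 to 869 CPM (median 621) to 1078 to 4342 CPM (median 1861) with no overlap (log2FC 1.80 ± 0.19, adjusted p = 5.5e-12). *Col10a1*, a collagen of growth plate cartilage, had no count in any CTRL mouse and 211 counts over the day 28 mice, at least 62.7-fold higher than the floor of 3 counts over the CTRL group. These counts were uneven between mice. Replicates 1, 4, 5 and 9 held 4.02, 4.99, 4.29 and 4.53 CPM, the other day 28 mice 0.68 CPM or less, and replicates 7 and 10 none. *Col11a1*, a fibrillar collagen typical of cartilage, reached 47.9 CPM in 1 mouse and a median of 1.19 CPM (log2FC 6.29 ± 1.14, adjusted p = 8.9e-06). The 3 lower genes were *Col8a2* (chosen after its value was seen), *Col17a1*, an epithelial transmembrane collagen (log2FC -1.17 ± 0.31, adjusted p = 0.0016), and *Col23a1* (log2FC -0.51 ± 0.16, adjusted p = 0.0073).

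Basement membrane genes moved in the same direction with smaller changes. Of 21 tested, 15 were higher and 1 lower, with a median of 0.36. *Col4a1*, a chain of the ubiquitous type IV collagen, rose from 790.04 to 1248 CPM (median 1062) to 1273 to 3831 CPM (median 2113) without overlap (log2FC 1.15 ± 0.16, adjusted p = 3.1e-08). *Col4a3*, a chain of the alveolar type IV collagen, did not pass the test (log2FC 0.26 ± 0.14, adjusted p = 0.11). *Lama1*, a laminin chain of embryonic tissue, showed the largest increase of the list, from a median of 2.46 to 22.1 CPM (log2FC 3.39 ± 0.42, adjusted p = 1.2e-09), and *Col4a6* was the gene that fell (log2FC -0.55 ± 0.16, adjusted p = 0.0033).

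Among 26 genes of collagen maturation and cross-linking, 17 were higher and 4 lower, with a median of 0.32. *Lox*, the lysyl oxidase that cross-links collagen and elastin, was measured at 51.8 to 81.4 CPM (median 62.4) in CTRL and 84.7 to 804 CPM (median 174) on day 28, and all day 28 mice lay above all CTRL mice (log2FC 1.93 ± 0.32, adjusted p = 1.9e-06). *P4ha3*, a prolyl 4-hydroxylase subunit, rose from a median of 2.25 to 12.7 CPM (log2FC 2.90 ± 0.39, adjusted p = 1.6e-08). *Pcolce2*, an enhancer of procollagen processing, fell in all 12 mice, from 326 to 417 CPM (median 367) to 58.5 to 291 CPM (median 161) (log2FC -1.09 ± 0.25, adjusted p = 3.7e-04). *Colgalt2*, a collagen galactosyltransferase, was also lower (log2FC -0.79 ± 0.18, adjusted p = 3.7e-04).

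Matricellular and adhesive glycoproteins, which tie cells to matrix, were mostly higher (18 of 24 higher, 2 lower, median 1.25). *Fn1*, fibronectin, was measured at 405 to 654 CPM (median 522) in CTRL and 842 to 6904 CPM (median 1823) on day 28, with no overlap (log2FC 2.30 ± 0.34, adjusted p = 1.4e-07). *Tnc*, tenascin C, a glycoprotein of healing wounds, went from 16.5 to 40.9 CPM (median 26.6) to 52.9 to 614 CPM (median 207), again without overlap (log2FC 3.15 ± 0.39, adjusted p = 1.2e-09). *Cthrc1*, a secreted protein of collagen-producing fibroblasts in fibrotic lung, behaved differently: 8 of 12 mice lay above CTRL, 4 lay within the CTRL range of 2.51 to 5.94 CPM (median 4.53), and the highest reached 75.5 CPM (log2FC 2.13 ± 0.44, adjusted p = 6.3e-05). *Postn*, periostin, was among the 4 that did not pass (log2FC 0.12 ± 0.08, adjusted p = 0.18; chosen after its value was seen). The 2 lower genes were *Tnxb*, tenascin X (log2FC -1.13 ± 0.25, adjusted p = 1.5e-04), and *Ccn3* (log2FC -0.56 ± 0.20, adjusted p = 0.015).

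Elastic fiber genes comprised 11 higher and 2 lower of 17, with a median of 0.57. Elastin itself, *Eln* (GRCm38 chromosome 5, 134702593 to 134747323, minus strand), lay at 126 to 207 CPM (median 149) in CTRL mice and at 329 to 5227 CPM (median 1753) on day 28 (log2FC 3.70 ± 0.39, adjusted p = 1.4e-11). The lowest day 28 values, 329, 419.7 and 595 CPM in replicates 10, 11 and 8, still exceeded the highest CTRL mouse. *Fbn2*, the fibrillin of developing tissue, rose from a median of 0.74 to 1.597 CPM, with 6 of 12 mice above CTRL (log2FC 2.34 ± 0.57, adjusted p = 7.0e-04). *Ltbp4* and *Efemp1*, which are needed for or associated with elastic fiber assembly, were lower (log2FC -0.70 ± 0.12 and -0.44 ± 0.13, adjusted p = 6.5e-06 and 0.0055).

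Matrix proteases and their inhibitors were mostly higher, with 15 higher and 2 lower of 25 tested and a median of 0.71. *Mmp12*, the macrophage elastase, went from 4.22 to 15.3 CPM (median 5.84) to 23.7 to 276 CPM (median 76.6) without overlap (log2FC 3.90 ± 0.42, adjusted p = 2.4e-11). *Timp1*, an inhibitor of metalloproteinases, went from 3.78 to 6.52 CPM (median 5.31) to 7.82 to 149.8 CPM (median 32.7), and the 12 mice differed 19.2-fold among themselves (log2FC 3.17 ± 0.49, adjusted p = 4.1e-07). *Mmp10* had 1 count in CTRL mice in all and 115 on day 28, a ratio of 103 between the CPM of the groups with a 95% counting interval of 18.04 to 4085, which covers counting error only. Replicates 1, 5 and 2 held 4.62, 2.60 and 1.65 CPM of *Mmp10*, and replicates 10, 11 and 12 none. *Mmp9* (log2FC -0.84 ± 0.28, adjusted p = 0.013) and *Mmp28* (log2FC -0.46 ± 0.17, adjusted p = 0.021) were lower.

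The TGF-beta and activin list moved in both directions, with 14 of 30 genes higher, 9 lower and a median of 0.15. Among the ligands, *Tgfb1* was measured at 60.97 to 85.6 CPM (median 76.96) in CTRL and 69.5 to 119 CPM (median 86.8) on day 28, a small shift with overlap (log2FC 0.23 ± 0.09, adjusted p = 0.027). *Tgfb2* rose more (log2FC 0.56 ± 0.09, adjusted p = 4.2e-07), and *Inhba*, the subunit of activin A, rose most of the list, from a median of 2.87 to 12.6 CPM (log2FC 2.63 ± 0.54, adjusted p = 6.4e-05). *Fst*, follistatin, which binds and blocks activin, was also higher (log2FC 2.32 ± 0.55, adjusted p = 4.2e-04). The co-receptor *Tgfbr3* fell in every mouse, from 135 to 181 CPM (median 150.3) to 47.5 to 103 CPM (median 74.1) (log2FC -1.0 ± 0.11, adjusted p = 2.4e-11). *Smad6*, an inhibitory signal transducer, fell as well (log2FC -0.72 ± 0.19, adjusted p = 0.0013).

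Contractile genes of myofibroblasts and smooth muscle did not move as a group (3 higher and 5 lower of 14, median 0.08). *Acta2*, alpha smooth muscle actin, lay at 191 to 249.995 CPM (median 222) in CTRL and 172 to 410.02 CPM (median 228) on day 28 and did not pass the test (log2FC 0.26 ± 0.16, adjusted p = 0.18). *Tpm1*, a tropomyosin, was higher in all 12 mice (log2FC 0.62 ± 0.07, adjusted p = 1.6e-10). *Tpm2* was higher only with replicate 10, where it reached 265 CPM (without that mouse log2FC 0.17, adjusted p = 0.4). *Myh11* and *Cnn1*, smooth muscle myosin and calponin, were lower (log2FC -0.67 ± 0.11 and -0.54 ± 0.16, adjusted p = 6.9e-07 and 0.0039).

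Fibroblast markers split, with 5 higher and 9 lower of 19 and a median of −0.09. Their summed level was 5599 to 6691 CPM in CTRL mice and 2652 to 5176 CPM on day 28, below all CTRL mice in 12 of 12. Abundant members weigh most in this sum, whose median went from 5991 to 3720 CPM, and *Inmt* was among them. *Inmt*, a methyltransferase of alveolar fibroblasts in mouse, fell from 1552 to 2425 CPM (median 1868) to 203 to 1636 CPM (median 604) (log2FC -1.35 ± 0.27, adjusted p = 4.6e-05). *Ogn*, the proteoglycan osteoglycin, fell in all 12 mice (log2FC -1.06 ± 0.16, adjusted p = 1.7e-07). *Lrrc15*, a marker of activated fibroblasts, and *Grem1* rose instead, *Lrrc15* with a CTRL median of 0.137 and a day 28 median of 0.724 CPM (log2FC 4.15 ± 0.85, adjusted p = 5.9e-05). *Pdgfra*, a receptor found on most lung fibroblasts, did not pass the test (log2FC -0.09 ± 0.13, adjusted p = 0.57).

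In the alveolar epithelium, AT1 markers were lower in 8 of 16 and higher in 2, with a median of −0.19. *Ager*, the receptor that marks AT1 cells, did not differ beyond the spread (1694 to 2537 CPM (median 2008) in CTRL, 1119.95 to 2421 CPM (median 2124) on day 28, log2FC -0.09, adjusted p = 0.57). *Cav1*, caveolin 1, which is shared with endothelium, fell in 10 of 12 mice below all CTRL mice (log2FC -0.54 ± 0.14, adjusted p = 0.0014), and so did *Hopx* in 9 (log2FC -0.48 ± 0.14, adjusted p = 0.0053). *Igfbp2* rose (log2FC 0.87 ± 0.23, adjusted p = 0.0014), as did *Pdpn* (log2FC 0.29, adjusted p = 0.018).

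AT2 and surfactant genes were higher in 8 of 20 and lower in none, with a median of 0.29. Not all members are particular to AT2 cells, as *Fasn* is counted again under fatty acid synthesis. *Sftpc*, surfactant protein C, lay at 12126 to 15394 CPM (median 13751) in CTRL and at 6053 to 17942 CPM (median 13183) on day 28, and the group comparison did not pass (log2FC -0.15 ± 0.18, adjusted p = 0.52). The day 28 mice fell on both sides, with 3 above all CTRL mice and 4 below them, and the lowest levels were 6053, 7228 and 8599 CPM in replicates 1, 5 and 4. *Sftpd*, surfactant protein D, was higher (log2FC 0.41 ± 0.15, adjusted p = 0.026). *Lcn2*, lipocalin 2, an antimicrobial protein, rose without overlap from 60.3 to 124 CPM (median 81.2) to 140.2 to 602 CPM (median 269) (log2FC 1.90 ± 0.22, adjusted p = 2.6e-10). *Scd1*, a fatty acid desaturase, rose from a median of 1266 to 2929.8 CPM (log2FC 1.30 ± 0.19, adjusted p = 1.9e-07).

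Genes of the transitional alveolar epithelium were higher in 20 of 22 and lower in none, with a median of 1.07, and *Krt19* and *Cldn18* were the 2 that did not pass (chosen after their values were seen). The list shares *Fn1* with the matricellular list and *Lgals3* with that of profibrotic macrophages, so its count is not specific to this cell state. *Krt8* itself changed little, from 119 to 175 CPM (median 146) to 112 to 277 CPM (median 169), with 6 mice above and 1 below all CTRL mice (log2FC 0.36 ± 0.12, adjusted p = 0.0095). *Cdkn1a*, the cell cycle inhibitor p21, which belongs to this list and to the p53 targets, rose from 22.6 to 49.3 CPM (median 30.8) to 88.4 to 227 CPM (median 168). No other gene of the 36 lists had a smaller adjusted p (log2FC 2.36 ± 0.15, adjusted p = 9.0e-21), and the lowest day 28 mouse was 1.79 times the highest CTRL mouse. *Krt5* and *Krt17*, keratins of basal cells, were absent or nearly so in CTRL. *Krt17* had no count in CTRL mice and 120 on day 28, at least 35.7-fold higher than the floor over the group. *Krt5* had 3 counts in CTRL and 256 on day 28, a ratio of 76.1 (95% counting interval 25.7 to 371). Its highest day 28 mouse was at 10.8 CPM and the median at 0.554 CPM.

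Airway epithelial genes were mostly lower. Of 18 club and secretory cell genes, 12 were lower and 1 higher (median −0.77). The summed level was 30069 to 37602 CPM in CTRL mice and 5969 to 26750 CPM on day 28, with no overlap. Abundant members weigh most in this sum. Its CTRL median was 35902 CPM, beside a CTRL median of 22821 CPM for *Scgb1a1* alone. *Scgb1a1*, the club cell secretoglobin, fell from 17908 to 24458 CPM (median 22821) to 3238 to 17596 CPM (median 10553) in all 12 mice (log2FC -1.07 ± 0.22, adjusted p = 5.6e-05). *Cbr2*, a carbonyl reductase, fell from 3629.9 to 4425 CPM (median 4216) to 315 to 3195 CPM (median 1685) (log2FC -1.29 ± 0.27, adjusted p = 9.5e-05), and the cytochrome gene *Cyp2a5* from a median of 29.7 to 13.1 CPM (log2FC -1.26 ± 0.34, adjusted p = 0.0021). The exception was *Bpifa1*, an antimicrobial airway protein, at 1.56 to 15.6 CPM (median 5.28) in CTRL and 0.874 to 189.7 CPM (median 23.5) on day 28, where 6 mice lay above and 2 below all CTRL mice (log2FC 3.08 ± 0.92, adjusted p = 0.0047).

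Ciliated cell genes were lower in 21 of 22 and higher in none (median −0.84), and without replicate 10 all 22 were lower. *Mlf1* was the one that did not pass with all mice (chosen after its value was seen). *Foxj1*, the transcription factor that directs the building of motile cilia, was measured at 70.1 to 105 CPM (median 90.8) in CTRL and 18.9 to 96.2 CPM (median 58.1) on day 28, with 7 of 12 below all CTRL mice (log2FC -0.61 ± 0.17, adjusted p = 0.0021). *Rsph4a*, a component of ciliary radial spokes, and *Hydin*, of the central pair, fell by more (log2FC -1.07 ± 0.21 and -1.02 ± 0.25, adjusted p = 3.1e-05 and 7.3e-04).

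Endothelial markers were lower in 14 of 31 and higher in 5, with a median of −0.28. *Pecam1*, the adhesion molecule CD31, fell from 842 to 997 CPM (median 944) to 431 to 954 CPM (median 809) (log2FC -0.28 ± 0.10, adjusted p = 0.012). *Car4*, a carbonic anhydrase of the alveolar capillary, and *Ednrb*, an endothelin receptor of the same cells, fell from medians of 159.6 and 145 to 127 and 68.8 CPM (log2FC -0.42 ± 0.16 and -1.05 ± 0.25, adjusted p = 0.033 and 4.0e-04). Some markers of other vessels rose. *Prox1*, the transcription factor of lymphatic endothelium, went from 2.62 to 4.64 CPM (median 4.01) to 7.90 to 26.3 CPM (median 10.3) without overlap (log2FC 1.77 ± 0.22, adjusted p = 1.9e-09), although *Lyve1*, another lymphatic marker, was lower (log2FC -0.94 ± 0.24, adjusted p = 0.0011; chosen after its value was seen). *Ackr1*, the atypical chemokine receptor of venules, went from 0 to 0.395 CPM (median 0.183) to 0.498 to 11.3 CPM (median 2.51) (log2FC 4.08 ± 0.61, adjusted p = 2.0e-07).

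Among the 36 lists, those of muscle and fat aside, the list of lipid-associated profibrotic macrophages showed the highest median. Of 30 genes of lipid-associated profibrotic macrophages, 26 were higher and none lower (median 1.5), and without replicate 10 the counts were 27 and 1. *Spp1* (GRCm38 chromosome 5, 104435118 to 104441050, plus strand), osteopontin, was measured at 26.99 to 122 CPM (median 66.8) in CTRL and 192 to 3979.6 CPM (median 1404) on day 28. All 12 mice lay above CTRL, with the lowest level, 192 CPM, at 1.57 times the highest CTRL mouse (log2FC 4.52 ± 0.52, adjusted p = 1.5e-10). *Trem2*, a lipid receptor of macrophages, went from 2.08 to 3.90 CPM (median 2.94) to 10.6 to 54.9 CPM (median 39.3) (log2FC 3.46 ± 0.28, adjusted p = 7.0e-16). *Gpnmb*, a glycoprotein of lipid-laden macrophages, went from 14.3 to 22.3 CPM (median 16.3) to 36.2 to 274 CPM (median 141) (log2FC 3.10 ± 0.35, adjusted p = 7.5e-11). Neither overlapped with CTRL.

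Genes of resident alveolar macrophages, which live in the airspace, were higher in 12 of 19 and lower in 2 (median 0.66). *Marco*, a scavenger receptor, spread from 2.02 to 54.8 CPM on day 28 around a median of 17.003, against 4.21 to 13.7 CPM (median 6.91) in CTRL (log2FC 1.25 ± 0.45, adjusted p = 0.019). *Siglecf* did not pass the test (log2FC 0.19 ± 0.18, adjusted p = 0.4). *Atp6v0d2*, a proton pump subunit, rose without overlap (log2FC 1.61 ± 0.21, adjusted p = 4.4e-09), and *Krt79* fell (log2FC -2.27 ± 0.39, adjusted p = 2.8e-06). *Fabp4*, a fatty acid carrier of macrophages and fat cells, was at 644 CPM in replicate 10 and its call was lost without that mouse (log2FC 0.77, adjusted p = 0.1). Monocyte and neutrophil genes were higher in 5 of 19 and lower in 2, beside 24.1% higher and 19.2% lower over all genes. The largest increase of that list was *Fn1*, which the matricellular list also holds. *S100a8*, a calcium-binding protein abundant in neutrophils, did not differ beyond the spread (7.55 to 26.7 CPM (median 16.6) in CTRL, 12.2 to 27.9 CPM (median 15.1) on day 28, log2FC -0.03, adjusted p = 0.95). *Mmp8*, a neutrophil collagenase, rose (log2FC 1.18, adjusted p = 0.0017).

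Chemokines were higher in 21 of 28 and lower in 1 (median 1.16). *Ccl2*, which attracts monocytes, went from 0.286 to 1.15 CPM (median 0.783) to 0.674 to 17.4 CPM (median 2.34), with 9 of 12 mice above CTRL (log2FC 2.69 ± 0.59, adjusted p = 1.5e-04). *Cxcl9* and *Cxcl10*, which attract activated T cells, rose from medians of 0.475 and 1.30 to 3.46 and 4.56 CPM (log2FC 3.42 ± 0.54 and 2.16 ± 0.39, adjusted p = 5.8e-07 and 9.2e-06). *Cx3cl1*, a membrane-bound chemokine, was the one that fell (log2FC -0.56 ± 0.10, adjusted p = 7.7e-06). Complement genes were higher in 21 of 26 and lower in 2 (median 0.59), or 18 and 2 without replicate 10. *C1qb*, a chain of the starter component C1q made by macrophages, went from 25.2 to 38.8 CPM (median 30.97) to 59.9 to 379 CPM (median 140.4) without overlap (log2FC 2.35 ± 0.26, adjusted p = 3.0e-11). *C3*, the central component, passed only with all mice (log2FC 0.34, adjusted p = 0.027, and without replicate 10 log2FC 0.27, adjusted p = 0.075). *C7*, a terminal component, was lower (log2FC -0.80 ± 0.19, adjusted p = 4.1e-04).

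Lymphocyte genes split by type. T and NK cell genes were higher in 5 of 30 and lower in 8 (median −0.10), beside 24.1% higher and 19.2% lower over all genes. *Foxp3*, the factor of regulatory T cells, went from 0.278 to 0.834 CPM (median 0.505) to 0.373 to 6.17 CPM (median 1.68) (log2FC 2.15 ± 0.43, adjusted p = 5.0e-05), and the inhibitory receptor *Pdcd1* from 0.0955 to 0.73 CPM (median 0.269) to 0.47 to 5.59 CPM (median 1.96) (log2FC 2.69 ± 0.42, adjusted p = 4.4e-07). *Cd3e*, a chain of the T cell receptor complex, did not differ beyond the spread (log2FC -0.09 ± 0.22, adjusted p = 0.76). Cytotoxic and NK genes were among those that fell, including *Gzma*, granzyme A, in all 12 mice (log2FC -1.15 ± 0.27, adjusted p = 4.2e-04), and the NK receptor *Ncr1* in 11 (log2FC -1.36 ± 0.29, adjusted p = 1.4e-04).

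Antibody genes rose. *Jchain*, which joins the units of secreted IgA and IgM, was measured at 7.05 to 27.2 CPM (median 11.3) in CTRL and 14.9 to 538 CPM (median 148) on day 28, with 10 of 12 mice above all CTRL mice (log2FC 3.79 ± 0.59, adjusted p = 3.6e-07). Of 125 immunoglobulin variable segments tested, 97 were higher and none lower (median 2.29), and 89 without replicate 10. Of 11 constant segments, 8 were higher and *Ighd* lower (median 2.46), or 6 and 1 without that mouse. *Ighg2c*, the constant region of an IgG subclass, went from 0 to 0.692 CPM (median 0.23) to 0.193 to 36.9 CPM (median 5.68) (log2FC 5.62 ± 1.56, adjusted p = 0.0025). Segments of one family are near-identical, so their counts may share reads. The B and plasma cell list as a whole held 11 higher and 2 lower of 29 genes (median 0.11), but 9 and 9 without replicate 10 (median −0.04). *Ms4a1*, CD20 of mature B cells, passed as lower only without that mouse (log2FC -0.36, adjusted p = 0.36, and without replicate 10 log2FC -0.80, adjusted p = 0.016), while *Ighd*, the constant region of naive B cells, was lower in both fits (log2FC -0.68, adjusted p = 0.038).

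Antigen presentation by MHC class II was higher in 9 of 13 genes and lower in none (median 0.50). *H2-Aa*, a class II alpha chain, went from 391 to 499 CPM (median 438) to 502 to 868 CPM (median 678) with all 12 mice above CTRL (log2FC 0.63 ± 0.15, adjusted p = 5.2e-04). *Ctss*, the protease cathepsin S, rose most of the list, from 152 to 193 CPM (median 177) to 313 to 1241 CPM (median 802) (log2FC 2.13 ± 0.21, adjusted p = 1.5e-12). Interferon-stimulated genes were higher in 11 of 28 and lower in 4 (median 0.20). *Isg15*, a ubiquitin-like protein, went from 5.44 to 10.9 CPM (median 7.11) to 9.08 to 16.9 CPM (median 13.2) (log2FC 0.79 ± 0.20, adjusted p = 8.3e-04), whereas *Gbp5* and *Ifit3b* fell (log2FC -0.56 ± 0.15 and -0.55 ± 0.15, adjusted p = 0.0017 and 0.002).

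Proliferation genes were still higher on day 28, in 29 of 32 and lower in none (median 1.11). *Mki67*, present in dividing cells, went from 11.4 to 28.3 CPM (median 18.7) to 22.6 to 97.6 CPM (median 51.999), with 11 of 12 mice above CTRL (log2FC 1.52 ± 0.23, adjusted p = 3.3e-07). *Cdk1*, the mitotic kinase, and its partner *Ccnb1* rose from medians of 3.09 and 1.21 to 11.3 and 4.53 CPM (log2FC 1.78 ± 0.24 and 1.99 ± 0.28, adjusted p = 1.5e-08 and 5.6e-08). *Mcm4*, *Mcm7* and *Cdc6*, all of DNA replication licensing, did not pass (chosen in part after their values were seen). At the same time 19 of 31 p53 target and senescence genes were higher and 3 lower (median 0.36). Beside *Cdkn1a*, *Cdkn2a*, which encodes the inhibitor p16, went from 0.0928 to 1.13 CPM (median 0.415) to 0.802 to 6.69 CPM (median 2.23) (log2FC 2.47 ± 0.37, adjusted p = 1.6e-07), and the cytokine *Il6* from a median of 0.154 to 0.761 CPM (log2FC 2.53 ± 0.59, adjusted p = 3.6e-04). *Igfbp3*, a binding protein of insulin-like growth factors, and *Rrm2b*, a ribonucleotide reductase subunit, fell (log2FC -1.20 ± 0.30 and -0.54 ± 0.10, adjusted p = 7.7e-04 and 1.7e-05).

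Endoplasmic reticulum chaperones and stress genes were higher in 14 of 25 and lower in 2 (median 0.26). *Hspa5*, the chaperone BiP, rose (log2FC 0.43 ± 0.08, adjusted p = 1.5e-05), and *Sdf2l1* rose without overlap (log2FC 1.09 ± 0.13, adjusted p = 7.7e-10), while *Herpud1* fell in all 12 mice (log2FC -0.54 ± 0.07, adjusted p = 2.6e-08). Of 29 genes of fatty acid and cholesterol synthesis, 12 were higher and 1 lower (median 0.18). *Fasn*, the fatty acid synthase, went from 320.3 to 563 CPM (median 478) to 392 to 1664 CPM (median 669) with its maximum in replicate 10 (log2FC 0.67 ± 0.16, adjusted p = 6.9e-04, and without replicate 10 log2FC 0.49, adjusted p = 0.0052). *Sqle*, of cholesterol synthesis, did not pass (log2FC 0.16, adjusted p = 0.22), and *Srebf2*, its transcriptional regulator, was lower (log2FC -0.24, adjusted p = 0.0087). Immediate early and heat shock genes, which respond within minutes to handling and stress, were mixed (4 higher and 3 lower of 22, median 0.01). Over all genes 24.1% were higher and 19.2% lower. *Jun* fell in all 12 mice (log2FC -0.56 ± 0.09, adjusted p = 1.5e-06) and *Egr2* rose (log2FC 1.27 ± 0.20, adjusted p = 3.3e-07).

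The circadian clock was the list in which every tested gene was called. All 17 genes passed the test, 4 higher and 13 lower, with a median of −0.75, and the counts were the same without replicate 10. The clock is a feedback loop in which a pair of activators, *Arntl* (BMAL1) with *Clock* or *Npas2*, binds the E-box CACGTG, and the repressors that they switch on, the period and cryptochrome genes, act back on them. *Nr1d1* and *Nr1d2* repress *Arntl* through the ROR element TAGGTCA, and the factors encoded by *Dbp*, *Tef* and *Hlf* bind the D-box TTANGTAA, which *Nfil3* also binds as a repressor. Clock genes outside the rule for named genes were chosen after their values were seen.

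The 4 higher clock genes were the activators and *Nfil3*. *Arntl* went from 2.76 to 5.57 CPM (median 3.45) in CTRL to 4.83 to 16.5 CPM (median 12.1) on day 28, with 11 of 12 mice above all CTRL mice (log2FC 1.61 ± 0.28, adjusted p = 4.4e-06). *Npas2* and *Clock* rose from medians of 1.13 and 77.5 to 2.77 and 95.7 CPM (log2FC 1.22 ± 0.25 and 0.35 ± 0.10, adjusted p = 7.3e-05 and 0.004). *Nfil3* went from 2.66 to 5.11 CPM (median 4.13) to 3.21 to 19.9 CPM (median 8.60) (log2FC 1.32 ± 0.31, adjusted p = 4.2e-04).

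Repressors and output factors were lower. *Per2* (GRCm38 chromosome 1, 91415982 to 91459324, minus strand) was measured at 92.8 to 197 CPM (median 118) in CTRL and 31.7 to 83.2 CPM (median 48.7) on day 28, below all CTRL mice in 12 of 12 (log2FC -1.32 ± 0.18, adjusted p = 1.2e-08). *Per3*, *Cry1* and *Cry2* fell with log2FC -0.93 ± 0.16, -0.99 ± 0.16 and -0.79 ± 0.10 (adjusted p = 4.7e-06, 1.0e-06 and 4.7e-09), and *Per1* fell least (log2FC -0.46, adjusted p = 0.025). The groups did not overlap for *Cry2*, *Nr1d2*, *Tef* and *Hlf* either. *Hlf* went from 73.2 to 95.9 CPM (median 82.6) to 17.1 to 61.6 CPM (median 34.8) (log2FC -1.26 ± 0.18, adjusted p = 5.1e-08) and *Tef* from 464 to 605 CPM (median 524) to 179 to 391 CPM (median 252) (log2FC -0.95 ± 0.12, adjusted p = 6.6e-09). *Nr1d1* and *Dbp*, whose RNA swings widely over a day, ranged from 106 to 414 and from 138 to 356 CPM within CTRL alone (log2FC -0.62 ± 0.24 and -0.98 ± 0.28, adjusted p = 0.032 and 0.0028). *Nr1d2*, *Ciart* and *Bhlhe41* fell by 0.72, 0.77 and 0.60 on the log2 scale (adjusted p = 7.3e-08, 2.5e-04 and 9.8e-04). The hour at which each mouse was killed is not given in the sources used here, and its part in these differences was not tested.

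Promoters of the clock genes, 250 bases before to 50 after the annotated start, were searched on both strands for the 3 motifs, since these are the elements by which the genes act on each other. RefSeq (GRCm38.p6) gave 20 promoters for 15 of the 17 genes, and none for *Per2*. The clock counts are of genes, some with more than 1 promoter, whereas the shares over all promoters count each promoter. The E-box was present in 5 of 11 lower genes and in none of 4 higher genes, and 7.15% of all 32851 promoters held it. The ROR element was present in 2 of the 4 higher genes, *Arntl* and *Nfil3*, and in none of the 11 lower genes, against 2.61% of all promoters. The D-box was present in 1 lower gene, *Per3*, which held 2 matches, against 2.32% of all promoters. A match describes the letters in this window only, and no test was made. The promoters with a match are printed 5′ to 3′ on the strand of the gene, with the motif or its reverse complement in capitals.
Arntl (chr7:113207261-113207560, plus strand): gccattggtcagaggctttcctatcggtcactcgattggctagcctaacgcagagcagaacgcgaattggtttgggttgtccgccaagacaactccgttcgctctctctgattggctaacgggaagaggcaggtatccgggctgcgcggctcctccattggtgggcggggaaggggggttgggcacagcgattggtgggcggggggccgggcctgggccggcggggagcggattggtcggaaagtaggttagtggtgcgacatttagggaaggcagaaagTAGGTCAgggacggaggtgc
Nfil3 (chr13:52980990-52981289, minus strand): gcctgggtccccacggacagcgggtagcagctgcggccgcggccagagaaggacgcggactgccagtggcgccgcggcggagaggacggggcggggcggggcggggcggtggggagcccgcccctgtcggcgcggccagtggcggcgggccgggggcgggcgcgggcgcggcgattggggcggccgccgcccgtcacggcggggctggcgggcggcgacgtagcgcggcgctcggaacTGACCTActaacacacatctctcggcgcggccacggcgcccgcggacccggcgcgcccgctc
Ciart (chr3:95882179-95882478, minus strand): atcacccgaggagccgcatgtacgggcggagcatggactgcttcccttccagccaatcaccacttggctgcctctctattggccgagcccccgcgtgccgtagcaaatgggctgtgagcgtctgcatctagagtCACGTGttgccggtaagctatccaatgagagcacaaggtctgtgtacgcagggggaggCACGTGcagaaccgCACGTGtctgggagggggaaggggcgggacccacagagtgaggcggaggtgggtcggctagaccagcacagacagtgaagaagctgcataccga
Per1 (chr11:69098699-69098998, plus strand): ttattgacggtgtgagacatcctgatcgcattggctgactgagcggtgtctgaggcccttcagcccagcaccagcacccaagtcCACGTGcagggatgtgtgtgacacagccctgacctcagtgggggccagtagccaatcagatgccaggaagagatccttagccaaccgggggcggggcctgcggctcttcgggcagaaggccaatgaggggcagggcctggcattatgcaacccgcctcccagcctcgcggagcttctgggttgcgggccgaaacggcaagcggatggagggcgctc
Cry1 (chr10:85185005-85185304, minus strand): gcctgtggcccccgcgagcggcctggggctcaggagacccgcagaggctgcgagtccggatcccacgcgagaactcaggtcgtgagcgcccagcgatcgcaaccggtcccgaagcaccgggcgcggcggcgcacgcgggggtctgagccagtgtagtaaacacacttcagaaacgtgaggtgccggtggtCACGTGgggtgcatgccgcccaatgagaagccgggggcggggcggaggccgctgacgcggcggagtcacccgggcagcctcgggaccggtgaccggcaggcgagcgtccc
Tef (chr15:81802423-81802722, plus strand): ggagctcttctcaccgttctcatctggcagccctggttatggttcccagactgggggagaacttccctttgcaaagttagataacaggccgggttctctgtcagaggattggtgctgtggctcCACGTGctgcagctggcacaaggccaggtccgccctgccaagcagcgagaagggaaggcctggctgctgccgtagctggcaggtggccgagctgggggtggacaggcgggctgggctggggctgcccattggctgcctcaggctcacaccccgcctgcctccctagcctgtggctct
Bhlhe41 (chr6:145865371-145865670, minus strand): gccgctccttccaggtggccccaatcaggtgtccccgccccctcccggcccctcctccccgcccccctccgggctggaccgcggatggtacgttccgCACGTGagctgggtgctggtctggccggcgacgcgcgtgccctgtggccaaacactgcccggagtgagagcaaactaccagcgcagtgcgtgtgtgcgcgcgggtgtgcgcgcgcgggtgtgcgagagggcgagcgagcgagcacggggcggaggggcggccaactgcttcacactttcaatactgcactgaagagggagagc
Per3 (chr4:151044616-151044915, minus strand): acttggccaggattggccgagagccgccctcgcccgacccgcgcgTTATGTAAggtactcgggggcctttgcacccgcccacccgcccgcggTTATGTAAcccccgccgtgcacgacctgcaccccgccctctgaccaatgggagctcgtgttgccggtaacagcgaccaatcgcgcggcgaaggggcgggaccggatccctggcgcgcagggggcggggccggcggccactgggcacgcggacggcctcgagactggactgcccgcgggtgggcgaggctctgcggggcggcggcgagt

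Among the genes with the largest decreases and no overlap, many had no list. *Cst8* (GRCm38 chromosome 2, 148798785 to 148805595, plus strand), a cystatin, went from 4.53 to 8.75 CPM (median 5.82) to 0 to 2.01 CPM (median 0.611) (log2FC -2.77 ± 0.38, adjusted p = 1.6e-08). *Gria1*, an AMPA-type glutamate receptor subunit, went from 28.8 to 45.8 CPM (median 36.7) to 0.678 to 16.4 CPM (median 5.51) (log2FC -2.26 ± 0.35, adjusted p = 4.3e-07). *Vpreb3*, a gene of immature B cells, went from 15.1 to 26.4 CPM (median 21.1) to 0.803 to 13.7 CPM (median 5.86) (log2FC -1.69 ± 0.26, adjusted p = 3.7e-07). Day 28 replicates 2, 1 and 9 held the least *Gria1*, 0.678, 1.10 and 2.36 CPM, and replicate 11 held 16.4 CPM, the nearest to CTRL. *Fmo2*, a flavin monooxygenase that oxidizes drugs, fell from a median of 1695 to 797 CPM (log2FC -1.31 ± 0.17, adjusted p = 5.1e-09). Others were *Gsg1l* (-1.78), *Pcdhac2* (-1.71), *Lypd2* (-1.67), *Tmem132d* (-1.66), *Itprid1* (-1.65), *Glb1l3* (-1.49), *Cys1* (-1.44), *Lrtm2* (-1.34) and *Faim2* (-1.33), each value being the log2FC.

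Many calls among muscle and fat genes were lost without replicate 10. With it, 17 of 19 skeletal muscle genes, 15 of 18 cardiac genes and 8 of 11 genes of the brown fat list were higher, and without it 4, 9 and 1. *Ckm*, muscle creatine kinase, was at 0.204 to 3.59 CPM (median 1.70) in CTRL and 0.291 to 248 CPM (median 1.80) on day 28, where replicate 10 held the maximum (log2FC 3.81, adjusted p = 4.6e-05, and without it log2FC 1.18, adjusted p = 0.087). *Atp2a1*, the calcium pump of fast muscle, fell from a log2FC of 4.58 to 0.20 without that mouse (adjusted p = 0.76). Cardiac genes kept part of the difference. *Nppa*, atrial natriuretic peptide, was at 717 CPM in replicate 10 and had a median of 0 on day 28, and without that mouse its log2FC was 3.73 (adjusted p = 0.0019). *Mybpc3*, a cardiac myosin-binding protein, remained higher too (without replicate 10 log2FC 2.12, adjusted p = 0.0021), and replicates 4, 7, 8 and 11 held 11.7, 7.55, 13.5 and 15.9 CPM. *Adipoq* and *Cfd*, made by fat cells, reached 196 and 1150.04 CPM in replicate 10 against CTRL maxima of 3.66 and 32.9 CPM, and turned from higher to a log2FC of -1.48 and -1.90 without it, where neither passed. *Cidec*, a lipid droplet protein, passed as lower only without that mouse (log2FC 0.99, adjusted p = 0.19, and log2FC -1.48, adjusted p = 0.01). In all, 345 DEGs were called only with replicate 10, 226 of them higher, and 358 only without it. The part of neighbouring tissue in the other lists was not tested.

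Red blood cell and mitochondrially encoded genes were lower in more members once replicate 10 was left out. Of 8 red cell genes, 3 were lower with all mice and 6 without replicate 10 (*Hbb-bs*, beta globin, log2FC -0.46, adjusted p = 0.11, and without it log2FC -0.59, adjusted p = 0.036). Of 7 mitochondrially encoded genes, 3 were lower and 5 without that mouse (*mt-Nd2*, log2FC -0.45, adjusted p = 0.0043, and without it log2FC -0.56, adjusted p = 2.3e-04). Of 7 thymus genes tested, 3 were lower and 1 higher, beside 19.2% lower and 24.1% higher over all genes. Alpha globin reads of *Hba-a1* and *Hba-a2* come from near-identical copies and may be shared between them.

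The 12 mice were unequally far from CTRL. For the 1082 genes higher by 2-fold or more, the median distance of a mouse from the CTRL mean on the log2 CPM scale was 1.89 in replicate 1, 1.86 in replicate 5 and 1.67 in replicate 4, but 0.65 in replicate 11 and 0.63 in replicate 3. For the 230 genes lower by 2-fold or more it was −2.35 in replicate 2, −2.27 in replicate 1 and −1.69 in replicate 5, and −0.48 in replicate 11. Replicates 1 and 5 thus stood among the farthest mice in both directions, and replicate 11 lay close to CTRL in both. Among the 341 higher genes without overlap, replicate 1 was the farthest mouse in 122 and replicate 5 in 101, while replicate 11 was the nearest in 103 and replicate 10 in 96. These genes were chosen on the same 12 mice, so the distances describe the mice and test nothing.

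**Figure D4:**
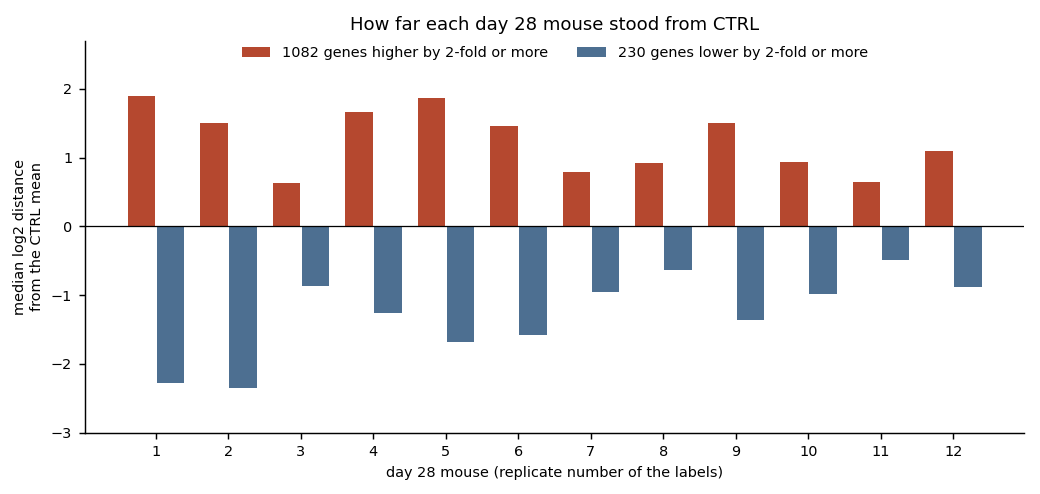
Median distance of each day 28 mouse from the CTRL mean (log2 CPM) over the 1082 genes higher (red) and the 230 genes lower (blue) by 2-fold or more, 1 pair of bars per mouse by replicate number. Replicates 1 and 5 reach 1.89 and 1.86 for the higher genes, and replicate 11 stays at 0.65 and −0.48.

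Whether marker genes followed *Col1a1* among the day 28 mice was examined for 8 genes on the log2 CPM scale (12 mice, permutation test, Benjamini-Hochberg adjustment over the 8). *Cthrc1* followed it closely, with Pearson's r = 0.92 (p = 2e-05, adjusted p = 0.00016) and Spearman's rho = 0.94 (p = 2e-05, adjusted p = 0.00016). Without replicates 5 and 1, the mice farthest from the *Col1a1* median, r was 0.89 (adjusted p = 0.0062), and in the CTRL mice it was −0.01. *Sftpc* ran opposite to *Col1a1*, with r = −0.81 (p = 0.0019, adjusted p = 0.0077) and rho = −0.57 (p = 0.059, adjusted p = 0.12). Without replicate 10, r was −0.86 (permutation adjusted p = 0.0053) and rho −0.69 (permutation adjusted p = 0.043). Without replicates 5 and 1, r was −0.58 (adjusted p = 0.16), so the call depends on those 2 mice. *Spp1* had r = 0.71 (p = 0.012, adjusted p = 0.032) and rho = 0.80 (p = 0.0031, adjusted p = 0.013) on day 28, with r = 0.60 (adjusted p = 0.16) without the same mice and r = 0.65 (adjusted p = 0.071) without replicate 10. In CTRL mice *Spp1* ran the other way, with r = −0.82 (permutation p = 0.0047, adjusted p = 0.038, n = 10), and r = −0.80 (permutation adjusted p = 0.17) without the 2 CTRL mice farthest from the median. *Top2a*, a topoisomerase of dividing cells, had r = 0.63 (p = 0.029, adjusted p = 0.058) and rho = 0.73 (p = 0.0086, adjusted p = 0.023). *Ager* had r = −0.57 (p = 0.049, adjusted p = 0.079) and rho = −0.18 (p = 0.57, adjusted p = 0.57), with r = −0.72 (adjusted p = 0.031) without replicate 10 but r = −0.30 (adjusted p = 0.45) and rho = 0.28 (adjusted p = 0.54) without replicates 5 and 1. *Krt8*, *Mmp12* and *Jchain* gave r of 0.35, 0.53 and 0.37, with adjusted p of 0.27, 0.10 and 0.27. All values of a mouse come from 1 library and share its depth.

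Day 28 was then set beside day 21 and day 35, 12 mice each, which were compared with the same 10 CTRL mice. *Eln* had a median of 2482 CPM on day 21, 1753 on day 28 and 801 on day 35, with log2FC over CTRL of 4.11, 3.70 and 2.89. For *Col1a1* the medians were 1348, 888 and 613 CPM, and the log2FC 2.51, 1.93 and 1.21. The ranges of the 3 days overlapped for both genes, and neither passed the test against day 21 (*Eln* log2FC -0.42, adjusted p = 0.65, *Col1a1* log2FC -0.58, adjusted p = 0.41). For day 35 over day 28, 0 genes of the elastic fiber list passed. Of the interstitial collagen list 1 passed, and 0 without replicate 10. *Mki67* had medians of 65.5, 51.999 and 32.9 CPM and did not pass against either day (log2FC -0.57, adjusted p = 0.19 for day 28 over day 21, log2FC -0.65, adjusted p = 0.1 for day 35 over day 28). *Jchain* had medians of 57.3, 148 and 143 CPM, with log2FC over CTRL of 2.22, 3.79 and 4.53. *Per2* had medians of 52.02, 48.7 and 54.3 CPM, and *Foxj1* had medians of 54.96, 58.1 and 86.9 CPM.

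**Figure D5:**
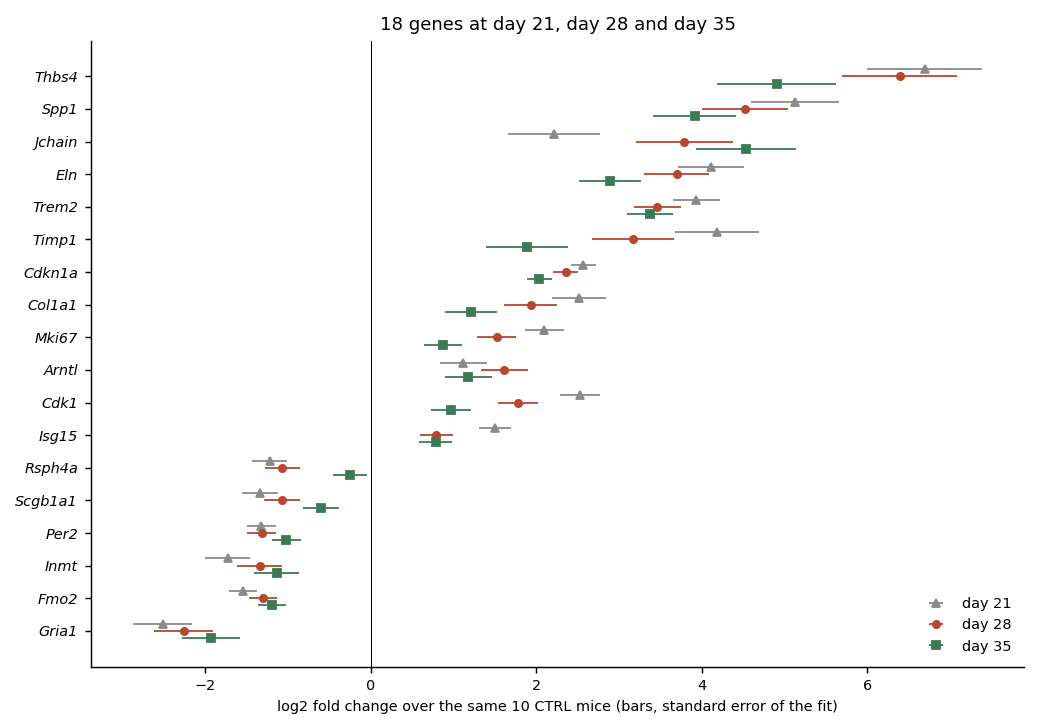
Log2 fold change over the same 10 CTRL mice of 18 genes on day 21 (grey triangles), day 28 (red circles) and day 35 (green squares), with the standard error of the fit as bars. *Col1a1* lies at 2.51, 1.93 and 1.21 and *Rsph4a* at −1.22, −1.07 and −0.25, while *Per2* and *Cdkn1a* change less between the days; the 3 values of a gene share their controls.

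Tested directly, day 28 differed from day 21 in 118 genes (0.727% of 16221), 67 higher and 51 lower on day 28, and in 7 (0.0432%) without replicate 10. The higher share of these calls, 56.8%, was 68.04% with library size as the only scaling and 43.1% with DESeq2. The largest increases were *Nppa*, *Pck1*, *Car3*, *Adipoq* and *Cfd*, genes of heart and fat, and none of them passed without replicate 10. The largest decreases included *Slfn9* (log2FC -0.94, adjusted p = 0.021), *Uhrf1*, which keeps DNA methylation through replication (log2FC -0.90, adjusted p = 0.0058), *Cenph*, a centromere protein (log2FC -0.86, adjusted p = 0.024), *Fam83d* (log2FC -0.82, adjusted p = 0.012) and *Cdc6* (log2FC -0.82, adjusted p = 0.011), most of them genes of cell division, and none of these 5 passed without replicate 10, although their log2FC then still lay between −0.74 and −0.90. Of the 32 cell cycle genes, 13 passed between day 28 and day 21, with a list median of −0.60, and 3 without replicate 10. Day 35 differed from day 28 in 206 genes (1.27%), 131 higher and 75 lower on day 35, and in 31 (0.191%) without replicate 10. *Ighg2c*, *Ighg3* and *Igkv6-15* were higher on day 35 (log2FC 3.76, 4.07 and 2.07), and so were *Unc79* (1.05) and *Ccdc33* (1.00), of which *Ighg2c* and *Ighg3* also passed without replicate 10. Ciliated cell genes passed in 6 of 22 for day 35 over day 28 (list median 0.63) and in none without replicate 10, and cell cycle genes in 7 of 32 (list median −0.60) and in 3.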

How the data were processed

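RNA of the inferior lung lobe was sequenced in 75 mice, 1 library each, of which 10 CTRL and 12 day 28 mice are compared here, with 12 mice each of day 21 and day 35. The authors prepared stranded libraries (NEBNext Ultra II Directional), sequenced them single-end on a NextSeq 500 and, per the submitters' processing notes, aligned reads with STAR 2.7.0f to GRCm38/mm10. The authors deposited whole-number read counts per gene, without normalization, in 1 table of 55536 Ensembl genes (release 96), of which 38610 had a count. The counting program, its strand setting and its treatment of reads with several matches are not given in the sources used here.

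Groups came from the sample labels. From the deposited counts, genes were kept by filterByExpr (16221 genes) and fitted with edgeR 4.0.16 in R 4.3.3: TMM factors, 7 group means over all 75 mice, quasi-likelihood F test, Benjamini-Hochberg adjustment over all genes tested, threshold 0.05. All mice entered so that the groups share 1 estimate of the spread. Standard errors are the log2FC divided by the square root of F. CPM per mouse used TMM-scaled library sizes, and log2 CPM a prior count of 2. Intervals and floors cover counting error only, since molecules carried no identifiers. No pair of libraries within a group agreed within sampling noise (chi-square per degree of freedom at least 4.11), and p-values measure the spread between these mice. Replicate numbers did not pair the groups. Other processing tried was library size or upper quartile factors as scaling, DESeq2 1.42.0, no low-count filter or a minimum of 10 counts in each mouse, fitting the 2 groups alone, the replicate number as a block, an absolute log2FC of at least 0.5, and leaving out replicate 10. Correlations used 100000 permutations, two-sided (SciPy 1.17.1, pandas 2.3.3, NumPy 2.4.6, Python 3.11.15). The fit was checked on simulated counts.

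Named genes were, first, the 15 largest increases and the 15 largest decreases with an adjusted p under 0.05, mean log2 CPM above 1, a proper symbol and no overlap between the groups. To these were added members marked in the 36 lists, the 2 largest increases and 2 largest decreases with an adjusted p under 0.05 in each list, the 5 genes most changed among those called only with or only without replicate 10, and the 5 most changed each way between neighbouring days. The comparison, the lists (785 genes) and this rule were chosen with earlier results of these data known. Symbols were matched to the annotation of the release. *Ahsp* was unmatched, and 3 symbols with 2 identifiers took the one with more counts. Some genes that the rule selects are not reported here.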

Additional observations from a re-analysis of the deposited data

Results flagged for a closer look

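In 190 groups of 10 CTRL mice, 1 for each named gene, the end value of 21 stood clearly apart from the other mice. Chance alone gives about 1 in 20 groups where values are independent and normally distributed. The 190 groups are the same 10 mice and include skewed and low counts, so the 21 cannot be measured against that rate. The highest CTRL mouse held 1.22 CPM of *Adamts4* (next 0.79), 15.3 CPM of *Mmp12* (next 7.57), 6.96 CPM of *Glb1l3* (next 5.35), 1333 CPM of *Hbb-bs* (next 830), 0.395 CPM of *Col11a1* (next 0.209), 0.0988 CPM of *Mmp10* (next 0), 0.692 CPM of *Ighg2c* (next 0.355), 0.899 CPM of *Cxcl9* (next 0.593), 82.4 CPM of *Cx3cl1* (next 67.3), 3.77 CPM of *Atp2a1* (next 1.67), 0.382 CPM of *Nppa* (next 0.159), 3.95 CPM of *Mybpc3* (next 1.81), 446 CPM of *Hba-a2* (next 316), 677 CPM of *Hba-a1* (next 443), 477 CPM of *Jun* (next 432), 3.16 CPM of *Pck1* (next 1.76) and 1.58 CPM of *Ighg3* (next 0.626). The lowest held 842 CPM of *Pecam1* (next 919), 54.9 CPM of *Tpm2* (next 64.8), 28.7 CPM of *Cnn1* (next 42.7) and 0.355 CPM of *Igkv6-15* (next 1.11). The day 28 mice were too many for this check.

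Named genes whose level on day 28 differed from a neighbouring day fell into 3 sets. The first held genes of muscle, heart and fat. From day 21 to day 28 the log2 difference was 3.47 for *Ckm*, 2.49 for *Ttn*, 2.33 for *Fabp4*, 6.26 for *Cfd*, 3.45 for *Thrsp*, 4.49 for *Atp2a1*, 3.21 for *Myl1*, 8.55 for *Nppa*, 7.00 for *Adipoq*, 5.95 for *Retn*, 3.81 for *Tnnt3*, 2.61 for *Cidec*, 3.33 for *Acsm3*, 7.31 for *Pck1* and 7.24 for *Car3*. From day 28 to day 35 it was −2.71 for *Ckm*, −2.07 for *Fabp4*, −3.75 for *Cfd*, −2.73 for *Thrsp*, −3.97 for *Atp2a1*, −3.09 for *Myl1*, −7.40 for *Nppa*, −4.52 for *Adipoq*, −3.98 for *Retn*, −3.70 for *Tnnt3*, −2.59 for *Cidec*, −2.46 for *Acsm3*, −4.27 for *Pck1* and −4.32 for *Car3*. Without replicate 10 these differences lay between −0.15 and 3.01 toward day 28 and between −1.66 and 0.78 after it, and *Retn* was then too low to be tested.

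The second set fell from day 21 to day 28, with log2 differences of −0.71 for *Isg15*, −0.94 for *Slfn9*, −0.90 for *Uhrf1*, −0.86 for *Cenph*, −0.82 for *Fam83d* and −0.82 for *Cdc6*, and without replicate 10 these were −0.68 to −0.90. *Cdk1*, another gene of cell division, fell from day 28 to day 35 (−0.81, and −0.88 without replicate 10). The last set was higher on day 35 than on day 28, with 0.82 for *Rsph4a*, 3.76 for *Ighg2c*, 4.07 for *Ighg3*, 2.07 for *Igkv6-15*, 1.05 for *Unc79* and 1.00 for *Ccdc33*, and without replicate 10 these were 0.81, 3.86, 4.44, 2.10, 0.99 and 0.93. All p-values behind these calls are adjusted over 16221 genes by edgeR, and the largest among them was 0.041. Without replicate 10, only *Ighg2c* and *Ighg3* among these genes still passed.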

How the results depend on the processing

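The number of higher and lower genes on day 28 against CTRL stayed within 1.5 times the reported 3906 and 3117 under library size or upper quartile scaling, DESeq2, both other filters, a fit of the 2 groups alone and without replicate 10. It fell to 2031 higher and 1216 lower genes with an absolute log2FC of at least 0.5. Scaling moved the median of all genes by 0.02 or less. Replicate numbers did not pair the mice (correlations from −0.15 to 0.14 over 10 numbers, 2 above 0.1, 1 mouse closest to its own number), and with the replicate block 3967 genes were higher and 3354 lower. Day 28 against day 21 gave 118 calls, 97 with library size scaling, 137 with DESeq2, 23 with the replicate block and 7 without replicate 10. Day 35 against day 28 gave 206 calls, 138 with library size scaling, 332 with DESeq2, 169 with the block and 31 without replicate 10.

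Among the 190 named genes, all kept their direction and call with upper quartile scaling. Those that turned were genes of fat and muscle. DESeq2 was run with its default replacement of outlying counts and was not fitted without it. With DESeq2 the log2FC was −1.94 for *Cfd*, −0.57 for *Thrsp*, −1.61 for *Adipoq*, −1.74 for *Retn*, −0.41 for *Tnnt3*, −1.49 for *Cidec*, −1.46 for *Acsm3*, −1.40 for *Pck1* and −1.80 for *Car3*. With the replicate block it was −1.63 for *Cfd*, −0.20 for *Adipoq*, −0.55 for *Pck1* and −1.30 for *Car3*. Without replicate 10 it was −1.90 for *Cfd*, −0.54 for *Thrsp*, −1.48 for *Adipoq*, −0.42 for *Tnnt3*, −1.48 for *Cidec*, −1.45 for *Acsm3*, −1.17 for *Pck1* and −1.72 for *Car3*. Leaving out a library, added for the lists after seeing the data, gave 1 lower gene for profibrotic macrophages, 9 lower for B and plasma cells, 4 higher for skeletal muscle, 9 higher for cardiac muscle, 1 higher and 1 lower for brown fat, 6 lower for red blood cells and 5 lower mitochondrially encoded genes. The relation of *Col1a1* with *Spp1* was r = 0.65 and with *Ager* r = −0.72 without replicate 10. The causes were not tested. Depth limits genes near 3 counts, such as *Col10a1*, *Krt17*, *Krt5* and *Mmp10*, to bounds or wide intervals.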
